A study of Mus musculus with 36 samples.

Results

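The translation initiation factor mRNAs were taken as every gene of the raw count table whose symbol begins with Eif followed by a digit from 1 to 6. This gave 54 symbols, and without the sex-linked pair Eif2s3x and Eif2s3y it left 52 of the 16614 genes of the table. All 52 are protein-coding in the GENCODE M21 annotation of GRCm38. By role they were 9 factors of start codon selection and the initiator tRNA complex, 5 subunits of eIF2B, 4 kinases of eIF2 alpha, 14 subunits of eIF3, 6 cap-binding and scaffold proteins, 5 helicases and their cofactors, 4 proteins that bind eIF4E, 3 factors of subunit joining and 2 copies of eIF5A.

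In the usual pathway, eIF2 brings the initiator tRNA to the small ribosomal subunit, and eIF3, eIF1, eIF1A and eIF5 hold this complex ready for scanning. The cap-binding protein eIF4E, the scaffold eIF4G and the helicase eIF4A bring it to the mRNA, and eIF5B joins the large subunit once the start codon is found. Cells slow initiation by phosphorylating eIF2 alpha, which blocks its recharging by eIF2B, or by proteins that occupy eIF4E. FMRP, the product of Fmr1, is an RNA-binding protein of neurons that is linked to stalled ribosomes and to repressed translation.

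Ribosome-protected fragments (RPFs) were sequenced from ribosome clusters of whole brain, and RNA-seq was made from the starting homogenate. After a sucrose gradient, the pellet held the densest ribosome clusters, termed granules in the labels, and fraction 5/6 the lighter polysomes. Each of the 12 groups had 3 libraries, each from a preparation that pooled 10 brains of C57BL/6 mice at postnatal day 5, either WT or FMR1 KO (FMR1 -/y). The standard nuclease preparation, read here as the M-protocol of the labels, used 10 mM MgCl2 and the low nuclease preparation 2.5 mM, so that nuclease and buffer cannot be told apart. The 3 RPF libraries of a group were given separate linkers and then pooled for reverse transcription and amplification, and p-values therefore measure the spread between pools of brains made in the same reaction. A difference between RPF groups cannot be told apart from one between these reactions. In such bulk samples, fewer cells of a type and less RNA per cell cannot be told apart.

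Cdk8, which is not an initiation factor, took 36.7 to 63.4% of the counts of a standard RPF library and was left out of every total, so that all levels are CPM (counts scaled to the total of the library) without Cdk8. These totals ran from 4284209 to 21274803 in the standard RPF libraries, from 22378936 to 60377525 in the low nuclease RPF libraries, and from 38505915 to 147207607 in RNA-seq. Fmr1 had 60.6 to 71.9 CPM in the standard WT RNA-seq and 16.4 to 18.1 in FMR1 KO. The library labelled WT fraction 5/6 replicate 3 had 3.17 CPM of Fmr1, against 100.1 and 68.6 in the other WT libraries of that fraction. Fmr1 had 5.98 to 10.7 CPM in FMR1 KO fraction 5/6 and 4.79 to 4.93 in the FMR1 KO pellet. The same library had 619.8 CPM of Eif3a, against 97.4 and 114 in the other WT fraction 5/6 libraries. In FMR1 KO, Eif3a had 104 to 151 CPM in fraction 5/6 and 387 to 696 in the pellet. Its 1455 CPM of Eif4ebp2 lay above both FMR1 KO groups, at 152 to 185 in fraction 5/6 and 51.5 to 152 in the pellet. Which genotype and fraction this library came from was not tested. The WT enrichment, the genotype comparison of standard fraction 5/6 and the levels and peaks of that fraction rest on this library in part. The 10 leading genes held 81.5 to 85.0% of the counts in 3 of the 6 low nuclease RNA-seq libraries, namely replicate 2 of WT and replicates 2 and 3 of FMR1 KO. Markers of neurons summed to 5710 to 12470 CPM in the standard libraries, those of astrocytes to 234 to 525 and those of the oligodendrocyte lineage to 57.1 to 526. Microglia markers summed to 55.2 to 160 and endothelium markers to 0.654 to 5.52. Those of red blood cells summed to 178 to 419 CPM in RNA-seq and 2.16 to 9.80 in RPFs. Liver, with 1 of its 2 listed genes present, reached at most 0.89.

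Initiation factor mRNAs made up 0.756 to 0.813% of the counts of the standard RNA-seq libraries, 0.361 to 0.557% of the standard pellet and 0.554 to 0.629% of the low nuclease pellet. To compare genes with each other, CPM was divided by exon length to give RPKM. In the standard WT RNA-seq, Eif5a, the hypusine-carrying factor that also aids elongation, stood first with 177 ± 6.37 RPKM (SD, n = 3), and its libraries did not overlap with those of the next gene. Eif4g2, the scaffold that cannot bind eIF4E, followed with 156 ± 10.8. Eif3h, Eif1, Eif3f and Eif4a1 came next with means of 125, 123, 113 and 106, and neighbours in this order overlapped. At the low end, Eif3j2 had 0.186 ± 0.035 RPKM and Eif2ak3, the kinase of the endoplasmic reticulum, 1.14 ± 0.14.

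The order of the RPKM levels was another in the WT pellet. Eif3c, a core subunit of eIF3, stood first with 127 ± 6.70 RPKM (SD, n = 3), apart from all others, and was followed by Eif3l with 65.1 ± 7.39, Eif3a with 59.7 ± 4.54 and Eif3h with 56.0 ± 7.75, which overlapped. Eif5a was the eighth with 44.9 ± 12.2, Eif4g2 had 20.8 ± 3.98 and Eif1, the fidelity factor of start codon choice, 8.32 ± 1.63. In the WT fraction 5/6, Eif3c again had the highest mean, 124 ± 24.3 RPKM, and its libraries overlapped with those of Eif4ebp2 through the library labelled replicate 3 alone. Without that library Eif3c ran from 95.9 to 134.8 RPKM and stood first, apart from Eif4ebp2 with 3.83 to 61.4 and from Eif3h with 52.6 to 78.4.

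**Figure D1:**
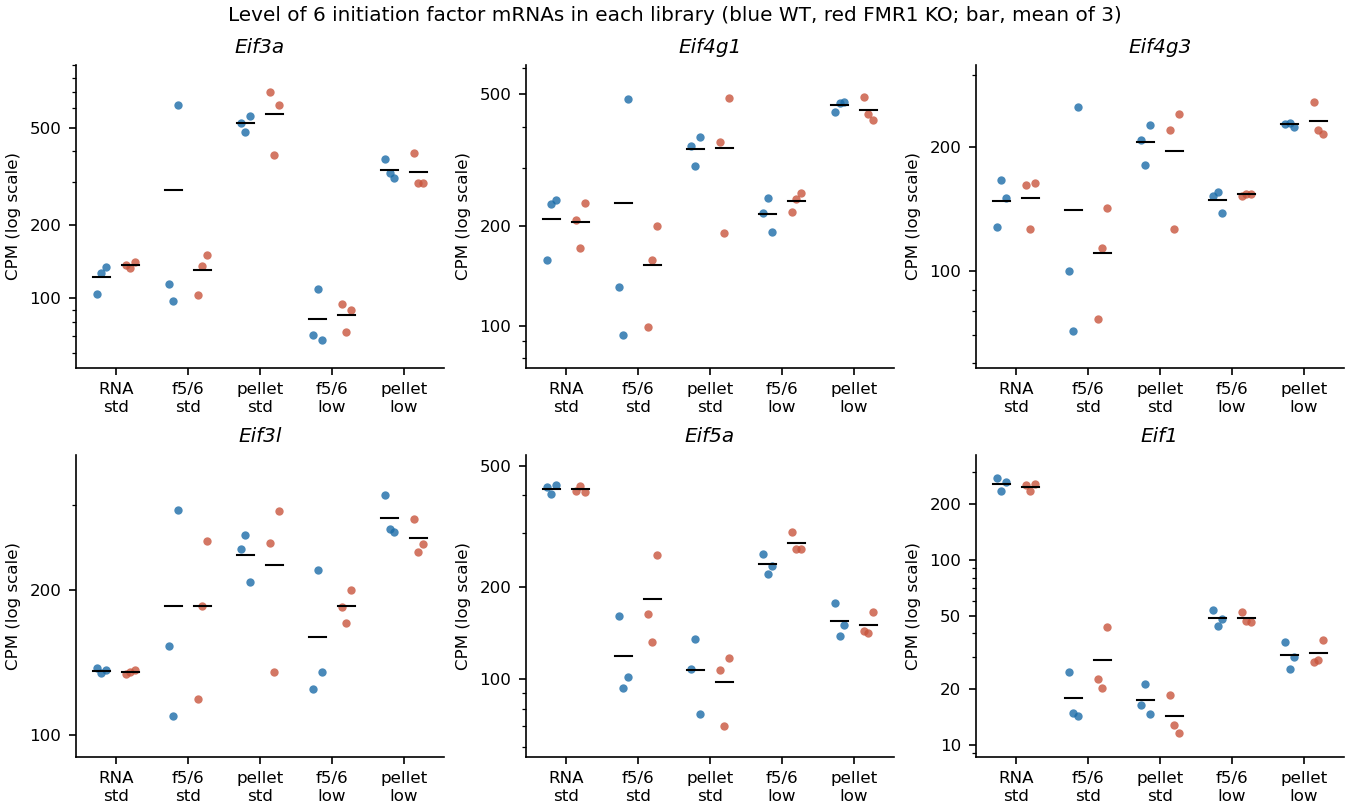
Level of Eif3a, Eif4g1, Eif4g3, Eif3l, Eif5a and Eif1 in each library, in CPM without Cdk8 on a log axis, by group (RNA-seq of the standard preparation, and fraction 5/6 and pellet of both preparations, in WT and FMR1 KO), with 1 point per library and a bar at the mean. Eif3a lies at 480.5 to 559.7 in the standard WT pellet and at 104 to 135 in the RNA-seq, while Eif1 lies at 14.7 to 21.3 and 235 to 275.

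The first comparison asked which initiation factor mRNAs carried more or fewer pellet RPFs than their RNA would give (occupancy, pellet over RNA-seq). Relative to the other genes, 10 of the 14 eIF3 mRNAs and all 5 of eIF2B were higher in the standard WT pellet, while 6 of the 9 start codon factors, 4 of the 6 cap-binding and scaffold proteins and both copies of eIF5A were lower. In WT, 26 of the 52 passed the test with higher and 15 with lower occupancy (quasi-likelihood test of edgeR, p adjusted by Benjamini-Hochberg over every gene tested, threshold 0.05, here called edgeR's adjusted p). Of the initiation factors 78.8% passed, against 65.3% of all genes (31.1% higher and 34.2% lower), and the difference between these shares was not tested. The median log2 fold change was 0.52 for the initiation factors and -0.10 for all genes. In FMR1 KO 27 were higher and 17 lower, with 66.9% of all genes past the threshold (31.8% higher and 35.2% lower) and medians of 0.45 and -0.07. The same 26 mRNAs were higher and the same 15 lower in both genotypes, against 27.6% and 29.9% of all genes tested in both.

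These directions are relative to the trimmed mean of all genes. Scaled by library size alone, the median of all genes moved to -1.25 in WT and -1.16 in FMR1 KO, 9 and 7 initiation factors were then higher, against 8.79% and 7.96% of all genes, and 30 and 27 lower, against 67.6% and 62%, and 19 of 52 changed sign in each genotype. On the CPM scale itself, 9 had every WT pellet library above every RNA-seq library, against 9.73% of all genes, and 31 had every one below, against 70.1%.

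Among the eIF3 mRNAs, 10 were higher and 1 lower in WT, with a median of 0.82, and 11 and 1 in FMR1 KO, with a median of 0.88; with library size alone these medians were -0.32 and -0.22, and 12 of the 14 stayed above the median of all genes in each. Eif3a (ENSMUSG00000024991, chromosome 19 from 60761117 to 60790658 in GRCm38), the largest subunit, had 523, 480.5 and 559.7 CPM in the WT pellet and 104, 127 and 135 in the RNA-seq. Its FMR1 KO values were 696, 387 and 617 and 137, 133 and 141. The groups did not overlap in either genotype, and FMR1 KO pellet replicate 2 was the lowest pellet library. The log2 fold change was 3.26 (SE 0.18, edgeR's adjusted p = 8.9e-06) in WT and 3.13 (SE 0.15, edgeR's adjusted p = 9.9e-06) in FMR1 KO. With low nuclease RNA-seq in place of the standard libraries it was 0.96 (SE 0.60, edgeR's adjusted p = 0.19) in WT and did not pass. In FMR1 KO it ran from 0.23 to 3.27 over the 17 alternatives, and 1 of them did not pass.

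Eif3c, Eif3l and Eif3d, a subunit that can itself bind caps, followed among the eIF3 mRNAs. Eif3c had 459.7, 459.8 and 419 CPM in the WT pellet against 186, 241 and 219 in the RNA-seq, a log2 fold change of 2.20 (SE 0.15, edgeR's adjusted p = 1.6e-05). Eif3l had 243, 260.4 and 208 against 137, 134 and 136, and Eif3d 159, 174 and 151 against 84.5, 101 and 98.3. In each of the 3 every WT pellet library lay above every RNA-seq library, and their log2 fold changes of 1.95 and 1.92 for Eif3l and Eif3d passed under each of the 17 alternatives. Eif3j1, the loosely bound subunit that helps eIF3 onto the small subunit, was the exception, with 4.51, 5.23 and 4.11 CPM in the pellet and 37.2, 30.8 and 35.1 in the RNA-seq and a log2 fold change of -1.75 (SE 0.13, edgeR's adjusted p = 2.2e-05). Eif3h and Eif3f were near the median of all genes, at -0.02 and -0.20, and did not pass, but with the low nuclease RNA-seq libraries they were at 1.42 (SE 0.25, edgeR's adjusted p = 0.0018) and 1.02 (SE 0.27, edgeR's adjusted p = 0.011). Eif3j1 and Eif3j2 are near-identical copies, and the division of counts between them is uncertain, as for the pairs Eif1 with Eif1b, Eif1a with Eif1ax and Eif4a1 with Eif4a2.

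All 5 subunits of eIF2B, the exchange factor that recharges eIF2, were higher in both genotypes, with medians of 0.95 in WT and 0.86 in FMR1 KO, or -0.20 and -0.21 with library size alone, where all 5 still lay above the median of all genes. Eif2b3 stood out, with 35.4, 41.8 and 34.8 CPM in the WT pellet and 15.5, 16.7 and 15.5 in the RNA-seq. The libraries did not overlap, and its log2 fold change was 2.38 (SE 0.11, edgeR's adjusted p = 5.2e-06). The remaining 4 ran from 0.70 for Eif2b5 to 1.11 for Eif2b2, or -0.45 and -0.03 with library size alone, and their CPM in the pellet lay below the RNA-seq or overlapped it.

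Of the kinases that phosphorylate eIF2 alpha, Eif2ak1, Eif2ak2 and Eif2ak4 were higher in both genotypes, but with library size alone Eif2ak1 turned to -0.63 in WT and -0.63 in FMR1 KO, and Eif2ak2 to -0.14 in WT. Eif2ak4, which senses uncharged tRNA, had 85.3, 42.1 and 46.7 CPM in the WT pellet and 27.7, 29.8 and 29.3 in the RNA-seq. Its log2 fold change was 2.17 (SE 0.29, edgeR's adjusted p = 0.00038) in WT and 2.84 in FMR1 KO. In the low nuclease WT pellet it had 23.3, 24.3 and 24.6 CPM, and it was not higher in all 4 occupancy comparisons. Eif2ak3 had 2.04 to 3.81 CPM in the WT pellet and did not pass, at 0.04, with -1.13 for library size alone and -2.11 (SE 0.33, edgeR's adjusted p = 0.0011) for the low nuclease RNA-seq libraries.

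The scaffolds and cap-binding proteins split. Eif4g1 (ENSMUSG00000045983, chromosome 16 from 20668313 to 20692884 in GRCm38), the main eIF4G, had 351, 304 and 372 CPM in the WT pellet and 159, 234 and 239.6 in the RNA-seq, and a log2 fold change of 1.87 (SE 0.21, edgeR's adjusted p = 0.00018). Its paralogue Eif4g3 (ENSMUSG00000028760, chromosome 4 from 137993022 to 138208508 in GRCm38) had 208, 182 and 227 and 128, 167 and 150.5, and 1.63 (SE 0.18, edgeR's adjusted p = 0.00015). In both every WT pellet library lay above every RNA-seq library. With the RNA-seq of the low nuclease preparation the values were -0.08 (SE 0.29, edgeR's adjusted p = 0.83) for Eif4g1, a turn in direction, and 0.08 (SE 0.26, edgeR's adjusted p = 0.79) for Eif4g3, and neither passed.

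Eif4g2, Eif4e, Eif4e2 and Eif4e3 lay on the other side. Eif4g2 had 195, 257 and 182 CPM in the WT pellet and 1597, 1474 and 1694 in the RNA-seq, a log2 fold change of -1.77 (SE 0.14, edgeR's adjusted p = 3.1e-05). Eif4e, the cap-binding protein, had 14.6, 9.41 and 6.54 against 118, 99.3 and 108, or -2.24 (SE 0.27, edgeR's adjusted p = 0.00023). The groups did not overlap in either, and Eif4e3 and Eif4e2, relatives of Eif4e that also recognise caps, were lower as well, with -2.41 and -1.06. All 4 were lower in FMR1 KO too, with log2 fold changes from -2.85 to -1.24.

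Of the 9 start codon factors, 6 were lower and 2 higher in WT, and 7 and 2 in FMR1 KO, while with library size alone 8 were lower and 0 higher in each. Eif1 (ENSMUSG00000035530, chromosome 11 from 100319885 to 100322096 in GRCm38) had 16.4, 21.3 and 14.7 CPM in the WT pellet and 275, 235 and 265 in the RNA-seq. This was the lowest occupancy of any initiation factor in both genotypes, with a log2 fold change of -2.74 (SE 0.13, edgeR's adjusted p = 6.1e-06) in WT and -2.99 (SE 0.21, edgeR's adjusted p = 3e-05) in FMR1 KO, and it passed under each of the 17 alternatives in both genotypes. The alpha and beta subunits of eIF2, which carries the initiator tRNA, differed, Eif2s1 (alpha) being higher at 0.56, or -0.59 with library size alone, and Eif2s2 (beta) lower at -0.84. With the other RNA-seq libraries the value of Eif2s2 was 0.24 (SE 0.26, edgeR's adjusted p = 0.45). Eif2a, an initiator tRNA carrier separate from eIF2, was higher with 1.33.

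Among the helicases, Eif4a2 was higher with 1.06 and Eif4a1 lower with -0.48, although neither had a higher mean CPM in the pellet. Eif4a2 had 287, 307 and 278 in the WT pellet and 311, 299.6 and 321 in the RNA-seq, and with library size alone its log2 fold change was -0.10. Eif4a1 had 135, 179 and 132 and 459.5, 450.0 and 469, and its value with the other RNA-seq libraries was 0.55 (SE 0.17, edgeR's adjusted p = 0.023). Of the cofactors, Eif4b and Eif4h lay near the median of all genes.

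Of the remaining factors, Eif5b, the GTPase that joins the subunits, had 155, 159.6 and 148 CPM in the WT pellet and 58.4, 59.5 and 58.7 in the RNA-seq. Its log2 fold change was 2.54 (SE 0.11, edgeR's adjusted p = 5e-06) in WT and 2.40 in FMR1 KO, where the other RNA-seq libraries turned it to -0.18 (SE 0.76, edgeR's adjusted p = 0.86). Eif5, which prompts eIF2 to hydrolyse its GTP, and Eif6, which keeps the large subunit free, did not pass. Eif5a and its rarer copy Eif5a2 were lower, with -0.84 and -2.07. Of the proteins that sequester eIF4E, Eif4ebp1 was lower with -1.68, at 0.409 to 0.940 CPM in the pellet, and Eif4ebp2 was higher with 1.38 (SE 0.46, edgeR's adjusted p = 0.031), which passed under 7 of 17 alternatives.

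**Figure D2:**
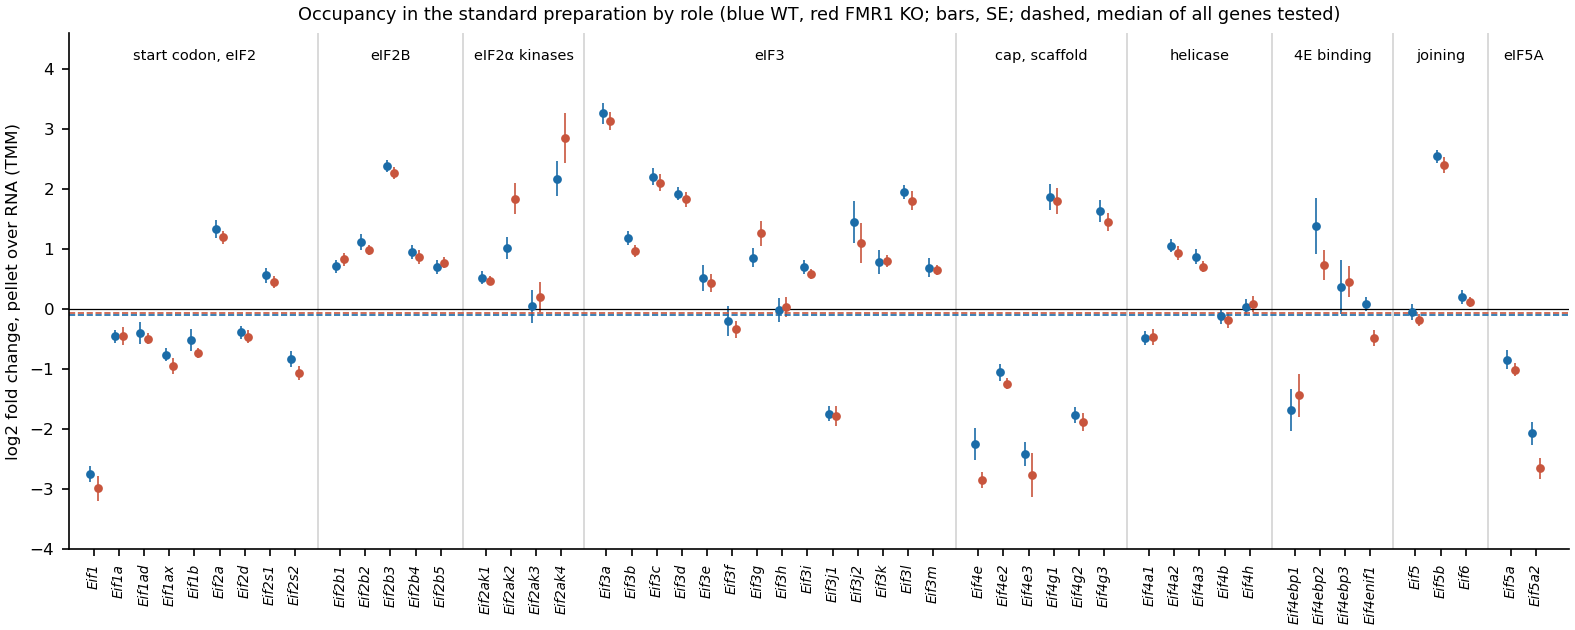
Occupancy of each initiation factor mRNA (log2 fold change, pellet over RNA-seq, standard preparation, relative to the trimmed mean of all genes), by role, in WT and FMR1 KO, with bars for the standard error. With this scaling Eif3a is highest, at 3.26 and 3.13, and Eif1 lowest, at -2.74 and -2.99, and with library size alone the median of the initiation factors moves by -1.15 in WT and -1.09 in FMR1 KO, and 19 of 52 change sign in each.

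In the low nuclease preparation, where the RNA-seq libraries differed most, 24 of 52 initiation factors were higher and 6 lower in WT (52.1% of all genes passed, 26.6% higher and 25.5% lower, with medians of 0.47 and -0.02), and 14 of 51 tested were higher and 3 lower in FMR1 KO (28.9%, or 16.1% and 12.9%, with medians of 0.57 and -0.04). Without the 3 RNA-seq libraries dominated by 10 genes, 33 and 26 passed, against 59% and 38.5% of all genes. In all 4 occupancy comparisons 13 mRNAs were higher, namely Eif2a, Eif2ak1, Eif2b1, Eif2b3, Eif2b4, Eif2b5, Eif3c, Eif3d, Eif3i, Eif3k, Eif3l, Eif3m and Eif4a2, and 2 were lower, Eif3j1 and Eif4e3. Of the 15082 genes tested in all 4, 51 of them initiation factors, 12.3% were higher and 8.96% lower in each. With library size alone 0 low nuclease calls were left in either genotype, against 1.96% and 1.4% of all genes. The FMR1 KO count fell to 7 without RNA-seq replicate 2, against 9.57% of all genes, and to 0 without replicate 2 of both groups, against 0%. Eif3a was not among the 13. It was at -0.17 and -0.86 in WT and FMR1 KO, with standard errors of 0.59 and 0.69, and its sign was not stable, with 0.94 and 1.42, both past the threshold, once the libraries dominated by 10 genes were left out.

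The next comparison asked which mRNAs were held in the pellet more than in fraction 5/6 (enrichment), both being RPFs of the same kind of gradient. Eif3a, Eif4g1 and Eif4g3 were higher in the pellet in FMR1 KO of the standard preparation and in both genotypes of the low nuclease preparation, while most other initiation factors were near or under the median of all genes. In the low nuclease WT libraries 4 were higher and 11 lower (23% of all genes passed, 14.3% higher and 8.63% lower, with medians of -0.20 and -0.02). Here the replicate number was taken to pair the samples, by correlations of 0.12 to 0.21 between same-numbered libraries. With it as a block 20 passed, all 15 among them, against 32.3% of all genes. The values given for these libraries are from the fit without the block. In the low nuclease FMR1 KO libraries 5 were higher and 6 lower (20% of all genes, or 9.3% and 10.7%, with medians of -0.17 and -0.03). In the standard FMR1 KO libraries 3 were higher and 1 lower, 7.84% of the 51 tested against 11.5% of all genes (10.1% higher and 1.4% lower), with medians of -0.19 and 0.01. This count was 15 with DESeq2, 10 with all groups in one fit, 7 with Cdk8 kept and 1 with library size alone, and it fell to 0 without replicate 1 or without replicate 3 of both groups.

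Eif3a had 373, 325 and 312 CPM in the low nuclease WT pellet and 71.2, 109 and 67.4 in fraction 5/6. In FMR1 KO it had 395, 298 and 298 and 94.8, 72.9 and 90.0. The pellet lay above fraction 5/6 in every library, and the log2 fold changes were 2.14 (SE 0.22, edgeR's adjusted p = 0.0067) in WT and 2.13 (SE 0.21, edgeR's adjusted p = 0.0072) in FMR1 KO. The values stayed between 1.98 and 2.39 in WT and between 1.92 and 2.25 in FMR1 KO, but the fit of all groups together ended both calls, as did the fit without replicate 1 of both groups in WT and those without replicate 2 or replicate 3 in FMR1 KO. In the standard FMR1 KO libraries it had 696, 387 and 617 CPM in the pellet and 104, 136 and 151 in fraction 5/6, a log2 fold change of 2.45 (SE 0.20, edgeR's adjusted p = 0.0016). Over the alternatives this value stayed between 2.13 and 2.61 and passed in 14 of 16, failing only in fits that left out replicate 1 or replicate 3 of both groups.

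Eif4g1 had 442, 472 and 476 CPM in the low nuclease WT pellet and 219, 244 and 193 in fraction 5/6, a log2 fold change of 1.19 (SE 0.17, edgeR's adjusted p = 0.01). Eif4g3 had 228, 229 and 224 and 152, 156 and 139, or 0.72 (SE 0.13, edgeR's adjusted p = 0.017). Neither overlapped between pellet and fraction 5/6, and of 16 alternatives 3 ended the call of Eif4g1 and 5 that of Eif4g3. The third scaffold, Eif4g2, went with neither, at -0.18 in WT and -0.15 in FMR1 KO. In the standard FMR1 KO libraries Eif4g1 was at 1.50 (SE 0.26, edgeR's adjusted p = 0.014) and Eif4g3 at 1.16 (SE 0.17, edgeR's adjusted p = 0.0091), with ranges of 1.18 to 1.79 and 0.83 to 1.35 over the alternatives. Library size alone and the fits without pellet replicate 1 or without fraction 5/6 replicate 3 ended both calls, as did the fits without replicate 1 or without replicate 3 of both groups, and the fit without fraction 5/6 replicate 1 ended that of Eif4g1.

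Eif3l was the one further mRNA that was higher in both low nuclease comparisons, which made 4 in all, against 6.83% of all genes tested in both. It had 316, 268 and 264 CPM in the WT pellet and 124, 219.9 and 135 in fraction 5/6. Its log2 fold changes were 0.93 (SE 0.24, edgeR's adjusted p = 0.038) in WT and 0.67 (SE 0.14, edgeR's adjusted p = 0.03) in FMR1 KO. Of 16 alternatives, 8 in WT and 9 in FMR1 KO ended this call, most of them with libraries left out, with values from 0.77 to 1.23 and from 0.48 to 0.75. Eif2ak4 was higher in FMR1 KO, at 0.36 (SE 0.09, edgeR's adjusted p = 0.039), and did not pass in WT, at 0.45. Eif3f, Eif3g and Eif5a were lower in both low nuclease comparisons, against 3.26% of all genes. Of 16 alternatives, 10, 6 and 10 in WT and 9, 9 and 7 in FMR1 KO ended these calls, in this order, and the values kept their sign. Eif3g, an RNA-binding subunit, had 83.2, 78.7 and 78.8 CPM in the WT pellet and 138, 122 and 139.8 in fraction 5/6, a log2 fold change of -0.62 (SE 0.11, edgeR's adjusted p = 0.015). Eif2s2 and Eif2s1 were lower in WT, with -0.80 and -0.63. In FMR1 KO they were at -0.29 and -0.17 and did not pass, and the difference between the genotypes was not tested.

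In the standard WT libraries 0 of the 50 initiation factors tested passed, 3 had an unadjusted p under 0.05, DESeq2 also called 0, and 0.0229% of all genes passed. Eif3a had 114, 97.4 and 619.8 CPM in fraction 5/6, Eif4g1 131, 93.8 and 483 and Eif4g3 100.3, 71.7 and 249.7. In each, the last value, from the library labelled WT fraction 5/6 replicate 3, lay above both others and above every WT pellet library. Without that library 7 of 51 passed, 5 higher and 2 lower, against 9.43% of all genes in the same fit. Eif3a was then at 2.23 (SE 0.22, edgeR's adjusted p = 0.0091), Eif4g1 at 1.56 (SE 0.20, edgeR's adjusted p = 0.014), Eif4g3 at 1.21 (SE 0.20, edgeR's adjusted p = 0.025) and Eif3l at 0.79 (SE 0.11, edgeR's adjusted p = 0.017). With it they were at 0.99, 0.62, 0.61 and 0.39.

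Long coding sequences went with higher enrichment among the initiation factors as among all genes. Across the 51 initiation factors of the standard FMR1 KO comparison, the log2 fold change and the log2 coding length had a Pearson r of 0.67 and a Spearman rho of 0.66, against 0.42 and 0.57 over 13248 genes. In the low nuclease libraries r was 0.47 in WT and 0.58 in FMR1 KO. In standard WT r was 0.24 and rho 0.30, or 0.31 and 0.42 without the library labelled fraction 5/6 replicate 3, against 0.23 and 0.42 over all genes with it. Standard occupancy also went with coding length, with an r of 0.59 and a rho of 0.58 in WT and 0.60 and 0.58 in FMR1 KO among the 52, against 0.31 and 0.37, and 0.29 and 0.37, over all genes. In low nuclease occupancy r was 0.23 in WT and 0.13 in FMR1 KO. These are correlations across genes of the same libraries, and genes are not independent replicates. In FMR1 KO the 8 shortest, under 600 nt, had a median of -0.53 against -0.36 for all genes of that length, and the 10 of 2400 nt or more a median of 0.42 against 0.60. Eif3a, with a coding sequence of 4032 nt, Eif4g1 with 4800 and Eif4g3 with 5286 lay above the median of their class and passed. Eif2ak4, with 4944 nt, was at 0.81 (SE 0.73) and did not pass. The part of coding length in the calls was not tested.

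**Figure D3:**
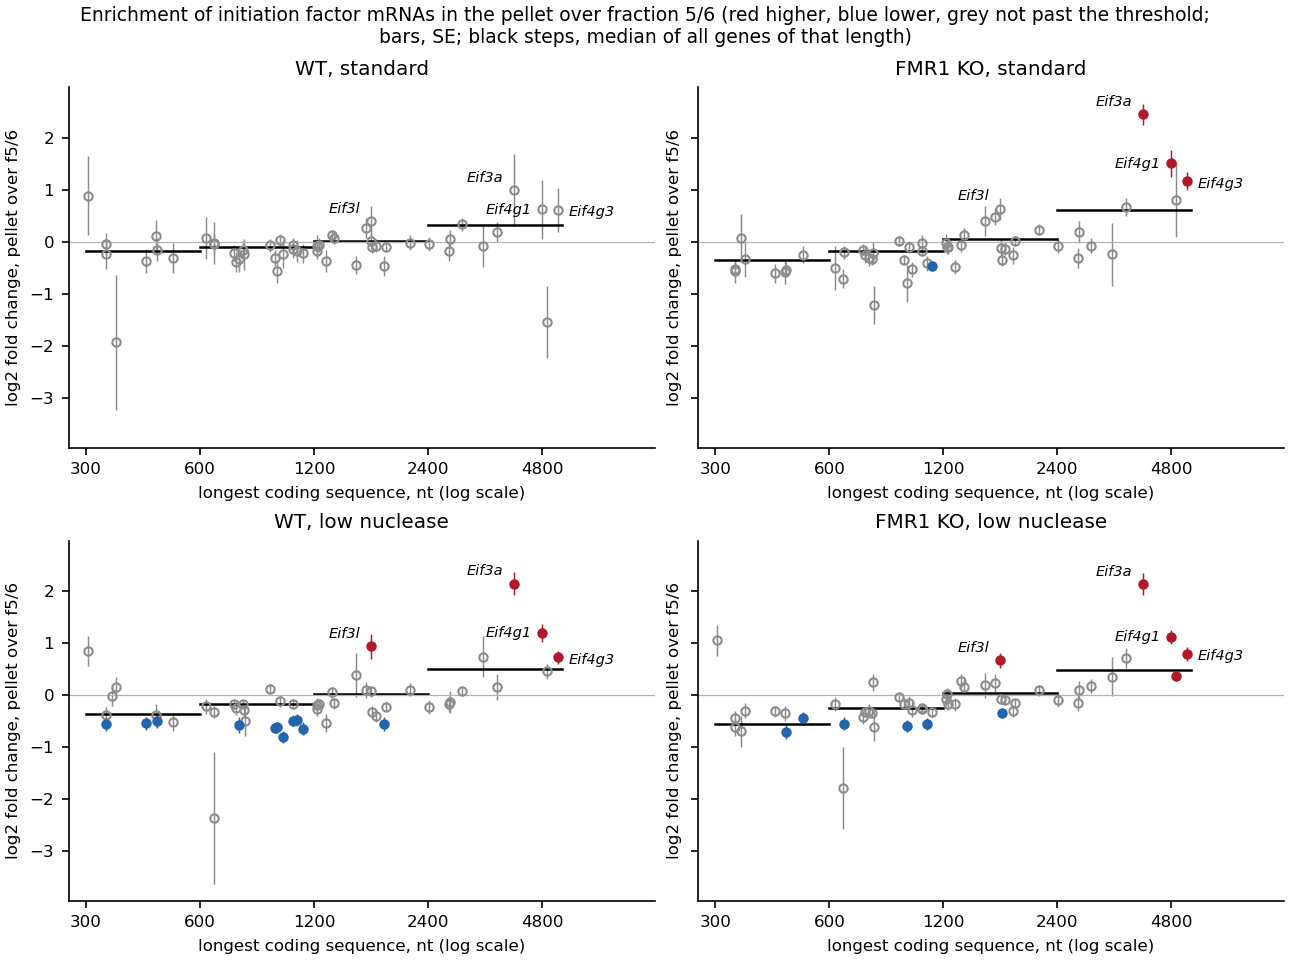
Enrichment of each initiation factor mRNA (log2 fold change, pellet over fraction 5/6, with SE) against the length of its longest coding sequence in nt on a log axis, for both genotypes and preparations, with filled points for those past the threshold (red higher, blue lower) and black steps for the median of all genes of that length. Eif3a stands highest in FMR1 KO and in both low nuclease panels, at 2.45, 2.14 and 2.13.

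The pellets of both preparations were compared with each other, standard over low nuclease. In WT 14 of 52 initiation factors were higher and 2 lower in the standard pellet, with 39% of all genes past the threshold (15% higher and 24% lower) and medians of 0.18 and -0.04. In FMR1 KO 6 of 51 were higher and 2 lower (16.9%, or 7.4% and 9.53%, with medians of 0.17 and -0.02). With library size alone the counts were 3 and 19 in WT, against 2.02% and 49.2% of all genes, and 2 and 8 in FMR1 KO, against 2.03% and 25.8%, and 27 and 25 initiation factors changed sign. Eif2ak4, Eif3a, Eif3g, Eif3k and Eif4ebp2 were higher in both genotypes, against 5.33% of all genes tested in both, and 0 were lower in both, against 8.07%.

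Eif4ebp2, the main eIF4E-binding repressor of the brain, had the widest difference between the preparations in WT and, after Eif4e, in FMR1 KO. It had 56.3, 279 and 152 CPM in the standard WT pellet and 26.5, 19.6 and 17.3 in the low nuclease one, and 136, 51.5 and 152 and 13.7, 17.9 and 19.1 in FMR1 KO. The preparations did not overlap, and the log2 fold changes were 3.44 (SE 0.54, edgeR's adjusted p = 0.007) in WT and 3.19 (SE 0.29, edgeR's adjusted p = 0.0032) in FMR1 KO. In standard fraction 5/6 it had 22.1, 355 and 1455 CPM in WT, the last from the library labelled replicate 3, and 165, 185 and 152 in FMR1 KO, while in the standard RNA-seq they stayed between 119 and 150.9. Eif2ak4 also varied in standard fraction 5/6, with 83.8, 267 and 94.8 CPM in WT and 74.1, 86.0 and 18.2 in FMR1 KO, whereas the low nuclease RPF libraries stayed between 17.0 and 24.6.

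Eif4e was lower in the standard FMR1 KO pellet, with a log2 fold change of -3.21 (SE 0.80, edgeR's adjusted p = 0.044). Its low nuclease libraries were uneven, with 47.2, 28.9 and 229 CPM in the FMR1 KO pellet against 82.8, 14.6 and 16.7 in that of WT. Fraction 5/6 had 325, 349 and 527 in FMR1 KO and 502, 62.3 and 24.0 in WT. Of 16 alternatives 7 ended this call, namely the replicate block, the fits without any 1 of the standard pellet libraries and those without 1 replicate number in both groups, with values from -3.77 to -1.75. In the standard RPF libraries Eif4e stayed between 6.54 and 19.1 CPM. Its relative Eif4e2 did not spread in this way, with 30.2 to 37.4 CPM in the low nuclease pellets.

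The comparison of FMR1 KO with WT asked whether loss of FMRP changed the level of these mRNAs, and 0 initiation factors passed in any of its 5 tests. In the standard pellet 2 of 50 tested had an unadjusted p under 0.05 and 0.0152% of all genes passed. In the standard fraction 5/6 it was 0 of 49 and 0% of all genes, and in the standard RNA-seq 1 of 52 and 0.0736%. In the low nuclease preparation it was 1 of 52 in the pellet, with 0.0197% of all genes, and 5 of 52 in fraction 5/6, with 0.0445%. The interaction of genotype with occupancy gave 0 calls (2 at an unadjusted p under 0.05, 0.067% of all genes passed) and that with enrichment 0 (1 at an unadjusted p under 0.05, 0% of all genes), and DESeq2 called 0 initiation factors in all 7.

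The genotype effects were small in the RNA-seq and wider in the RPFs. In the standard RNA-seq all 52 log2 fold changes lay between -0.27 and 0.21 (Eif4ebp1 and Eif5b), with a median of 0.03 against 0.00 for all genes. Eif3a had 104, 127 and 135 CPM in WT and 137, 133 and 141 in FMR1 KO, a log2 fold change of 0.19 (SE 0.11, edgeR's adjusted p = 0.999). The standard errors were larger in the pellet, where Eif3a was at 0.12 (SE 0.18, edgeR's adjusted p = 0.986), so that a change of this size could not be told from the spread between libraries. The widest values did not pass either, and in standard fraction 5/6 they were -2.08 for Eif4ebp2, -1.65 for Eif2ak4, -1.30 for Eif3a and -0.88 for Eif4g1. Without the library labelled WT fraction 5/6 replicate 3, Eif4ebp2 was at -0.79 (SE 1.12, edgeR's adjusted p = 0.944) and Eif2ak4 at -1.98 (SE 0.96, edgeR's adjusted p = 0.84), and Eif3a and Eif4g1 moved to -0.10 and 0.03. In the low nuclease pellet Eif4e was at 1.57 (SE 1.01). 

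**Figure D4:**
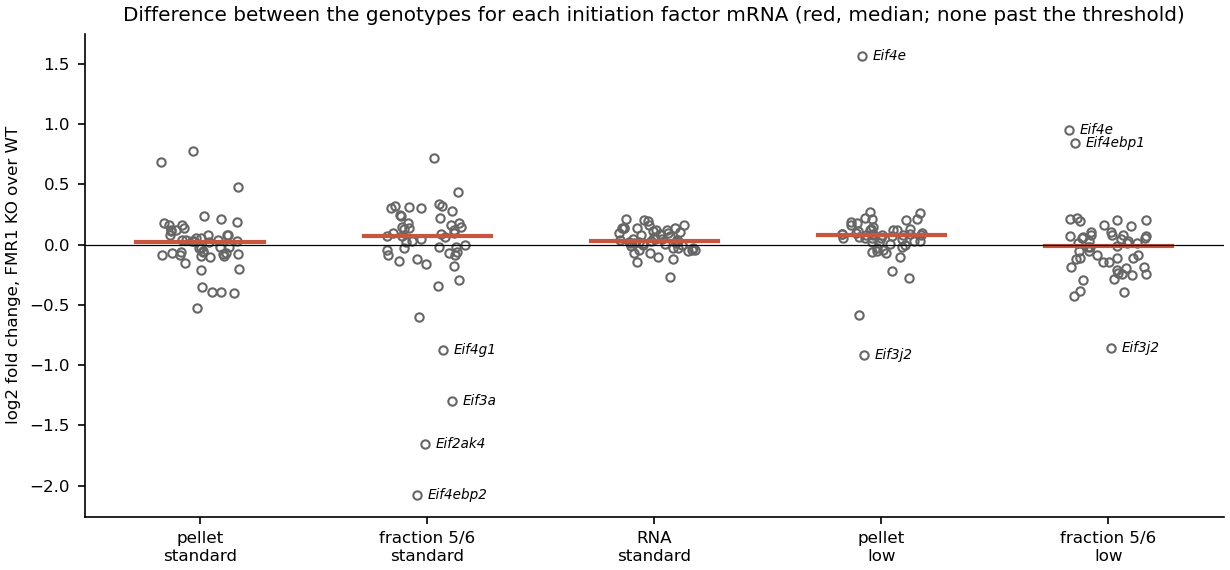
Log2 fold change of FMR1 KO over WT for every initiation factor mRNA tested, in the pellet, fraction 5/6 and RNA-seq of the standard preparation and the pellet and fraction 5/6 of the low nuclease preparation, with 1 point per mRNA and a red bar at the median. None passed edgeR's threshold, and the points spread least in the RNA-seq, between -0.27 and 0.21.

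Peaks of RPF coverage, which mark places where ribosomes gathered, were deposited for the 12 standard RPF libraries, called in each library on transcripts. The initiation factors held 2128 of the 278002 peaks, in 42 of the 52 mRNAs, and 10, Eif2ak4 among them, had none. By group 95.4 to 96.8% of them lay in coding sequence. Peak heights were not scaled between libraries, which differed in depth, and the median height of all peaks was 14 to 16 in each. A peak was counted as shared where its middle lay within 6 nt in all 3 libraries of a group.

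Shared peaks were found in 12 initiation factor mRNAs in the WT pellet (20 peaks), 13 in the FMR1 KO pellet (22 peaks), 7 in WT fraction 5/6 (10 peaks) and 10 in FMR1 KO fraction 5/6 (25 peaks). This was 23.1%, 25%, 13.5% and 19.2% of the 52, against 6.07%, 5.02%, 3.41% and 4.02% of all protein-coding genes. With 0 nt allowed between the middles, a pellet peak was shared in 1 mRNA for WT and in 2 for FMR1 KO, against 0.443% and 0.31% of all genes. The WT fraction 5/6 count includes the library labelled replicate 3, and 22 mRNAs had a peak shared by the other 2 libraries alone, a looser rule. The shares were not matched for the level of the genes, and the part of level was not tested. A shared peak was found in the pellet of WT but not of FMR1 KO in 5 mRNAs and the reverse in 6, against 3.21% and 2.16% of all protein-coding genes, without a test of that difference. Pellet peaks shared within each genotype, with the median middles of the genotypes within 6 nt, numbered 6. They lay in Eif1, Eif2s1, Eif3m and Eif4a1, all in coding sequence. Over the pellet libraries of both genotypes the middles ran from 1240 to 1247 in Eif2s1 and from 311 to 318 in Eif3m, wider than 6 nt. All 6 peaks were seen in at least 1 library of fraction 5/6 too, and 3 of them in all 6, or 4 in all 5 without the library labelled WT replicate 3.

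The sequences at these 6 pellet peaks are printed because they are the places on initiation factor mRNAs where RPFs gathered in every pellet library. Each is 27 nt of the sense strand in GRCm38, 5′ to 3′, with the codon at the peak's middle in capitals. They lie at chr11:100321035-100321328 (Eif1, plus strand, across an intron), chr12:78884836-78884862 (Eif2s1, plus), chr2:105013822-105013848 (Eif3m, minus), and, for Eif4a1 on the minus strand and each across an intron, chr11:69668534-69668655, chr11:69668322-69668419 and chr11:69667602-69667705.
Eif1 codon 99 of 113: cagttcctgataGAGattgggctggct
Eif2s1 codon 294 of 315: ctggaacggctgGAGagagaaaatgca
Eif3m codon 75 of 374: ctgttgatcctgGAAccagacaagcaa
Eif4a1 codon 209 of 406: agcaacacacagGTAgttttgttgtct
Eif4a1 codon 256 of 406: aatgtggaacgaGAGgagtggaagctt
Eif4a1 codon 360 of 406: tacatccacagaATCggtcgaggtggt

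In 4 of the 6 windows the middle codon was GAG or GAA, for glutamate. For all 15 peak windows on initiation factor mRNAs that could be matched by their sequence, the sequence began 1 nt before the listed position. Read 1 nt earlier, the middle moves to the codon before in 3 windows, to codon 74 (CTG) in Eif3m and to codons 208 (CAG) and 359 (AGA) in Eif4a1, and 3 of the 6 are then GAG or GAA. Over the whole windows 9 of 54 codons (16.7%) were GAC, GAT, GAA or GAG, for aspartate and glutamate, close to the 15.3% of the 26537 codons of all initiation factors. The windows of Eif2s1 and of the middle Eif4a1 peak were 74.1% purine and the first Eif4a1 window 48.1%.

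The highest of the shared peaks was that at codon 256 of Eif4a1. Its heights were 481, 331 and 244 in units of coverage in the 3 WT pellet libraries, 580, 414 and 291 in those of FMR1 KO, 750, 284 and 327 in WT fraction 5/6 (the last in the library labelled replicate 3) and 309, 507 and 154 in FMR1 KO fraction 5/6. The other Eif4a1 peaks reached 114, 102 and 67 at codon 209 and 67, 60 and 45 at codon 360 in the WT pellet. At codon 75 of Eif3m the WT pellet had 76, 52 and 28 and the FMR1 KO pellet 68, 50 and 37. In all these the genotypes overlapped.

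Eif3a, with the highest occupancy in the standard preparation, had almost no peaks in the pellet. It had 0, 0 and 0 in the WT pellet libraries, 1, 3 and 0 in FMR1 KO, but 16, 11 and 0 in WT fraction 5/6 and 14, 30 and 6 in FMR1 KO fraction 5/6. The 0 in WT fraction 5/6 came from the library labelled replicate 3. Eif3l was similar, with 0 peaks in all 6 pellet libraries, 0, 13 and 0 in WT fraction 5/6 and 9, 0 and 3 in FMR1 KO fraction 5/6. Eif4g3 went the other way, with 10, 0 and 2 peaks in the WT pellet, 8, 0 and 3 in FMR1 KO and 2 in all of fraction 5/6, both in the library labelled WT replicate 3. Eif5b held the most peaks of any initiation factor, 250 in all, of which 82 were in the pellet of each genotype, 60 in WT fraction 5/6 (24, 3 and 33, the last in the library labelled replicate 3) and 26 in FMR1 KO fraction 5/6. The study's methods set a minimum for peaks relative to the mean of each transcript, and whether it was applied before deposit is not given in the sources used here, so the number of peaks was not read as a level.

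**Figure D5:**
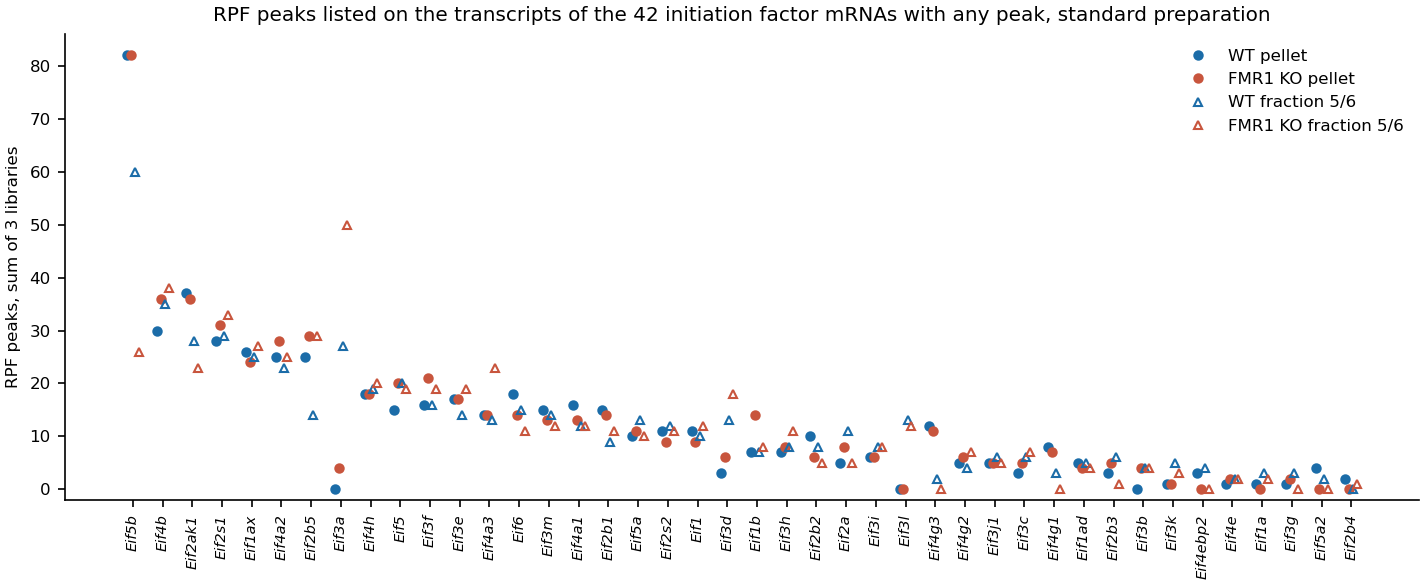
Number of RPF peaks on each initiation factor mRNA with any peak, summed over the 3 libraries of each group of the standard preparation, with circles for the pellet and triangles for fraction 5/6. Eif5b holds the most, 82 in the pellet of each genotype, and Eif3a has 0 and 4 in the WT and FMR1 KO pellet and 27 and 50 in fraction 5/6.

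The wider pathway was read from 18 listed partners of the initiation factors, such as poly(A)-binding proteins and their partners, ribosome recycling factors and the FMRP partner Cyfip1. In the standard WT occupancy comparison 7 were higher and 6 lower, against 31.1% and 34.2% of all genes, among them Paip1, which links the poly(A) tail to eIF3, with a log2 fold change of 2.73, and Cyfip1 with 2.10, while Ppp1r15a, a phosphatase subunit for eIF2 alpha, was at -2.77 and the stress factor Atf4 at -2.39. In the standard FMR1 KO enrichment comparison 3 were higher, Cyfip1 with 1.65, Dhx29 with 0.82 and Larp1 with 0.76, and Mcts1 was lower with -0.61, against 10.1% of all genes higher and 1.4% lower. In standard WT enrichment 0 of the 18 passed by edgeR, 0 had an unadjusted p under 0.05 and DESeq2 called 0. Without the library labelled WT fraction 5/6 replicate 3, 3 were higher and 1 lower, with 9.43% of all genes past the threshold. Cyfip1 was then at 1.52 rather than 0.90, Larp1 at 0.80 rather than 0.45 and Dhx29 at 0.68 rather than 0.39, and Denr, chosen after its value was seen, was lower at -0.61 rather than -0.44. With low nuclease 2 were higher and 3 lower in WT, against 14.3% and 8.63% of all genes, and 3 and 2 in FMR1 KO, against 9.3% and 10.7%. Cyfip1 was higher in both, with 1.69 and 1.47. Dhx29 and Larp1 were higher in FMR1 KO, with 0.63 and 0.68, and did not pass in WT, at 0.38 and -0.21. Mcts1 was lower in WT with -0.83 and did not pass in FMR1 KO, at -0.39. These are the partners called in the standard FMR1 KO comparison, and the other low nuclease calls are not named.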

How the data were processed

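The authors trimmed reads with Cutadapt 2.10, removed rRNA and ncRNA reads with Bowtie2 2.3.5, aligned to GRCm38 with STAR 2.7.8a, removed duplicates with Picard and SAMtools 1.19.2 and counted reads per gene with featureCounts 2.2.0. The deposited gene values are raw counts for 36 libraries. The deposited peak tables give a height in RPF coverage (signal) for each peak of a library, not scaled between libraries. RNA-seq reads come from whole transcripts and RPFs mostly from coding sequence, so that occupancy also depends on the coding share of an mRNA.

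From the counts of protein-coding genes without Cdk8, each comparison was fitted on its own groups with edgeR 4.0.16 in R 4.3.3 (filterByExpr, TMM normalisation, quasi-likelihood test, Benjamini-Hochberg adjustment over all genes tested, threshold 0.05). The standard error is the log2 fold change divided by the root of the F statistic. DESeq2 1.42.0 and the other alternatives are given in the closing section, and the script was tested on simulated data. Levels are CPM without Cdk8, and RPKM uses the union of exons in GENCODE M21, which also gave the coding lengths. The depth of each library kind stands in the report, and intervals between libraries cover 3 pools per group.

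The replicate number was taken to pair the samples where the deviations of every same-numbered pair correlated over 0.1. Among the comparisons made this held for the WT low nuclease pellet and fraction 5/6, with correlations of 0.12 to 0.21.

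Named genes were the initiation factors by role, the 3 largest rises and falls past the threshold in each comparison, up to 4 of the 18 listed partners by size of change, any of them past the threshold between the genotypes (there was none), and Cdk8 and Fmr1 as checks. A few more are named for their levels or peaks, chosen after their values were seen. The initiation factors, the partner and marker lists and the tests were chosen with earlier results of these data known. Promoter sequences and the shortened target lists of the supplements were not used here.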

Additional observations from a re-analysis of the deposited data

Results flagged for a closer look

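On the CPM scale, the pellet against the RNA-seq ran in opposite directions in the 2 preparations for 8 initiation factors in WT and for 10 in FMR1 KO. In each of them every standard pellet library lay below every standard RNA-seq library, and every low nuclease pellet library above every low nuclease RNA-seq library. The 8 in WT were Eif2b1, Eif2b5, Eif2s1, Eif3e, Eif3h, Eif3i, Eif3m and Eif4a1. Eif4a1 had 132 to 179 CPM in the standard pellet and 450.0 to 469 in its RNA-seq, but 232 to 264 in the low nuclease pellet and 29.6 to 197 in its RNA-seq. Of all genes 7.37% in WT and 9.03% in FMR1 KO showed an opposite pattern, lower shares than among the 52 initiation factors, and the difference between these shares was not tested or matched for level. The difference between the preparations was not tested, and 3 of the 6 low nuclease RNA-seq libraries are those dominated by 10 genes.

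FMR1 KO against WT in fraction 5/6 ran in opposite directions in the 2 preparations for 2 initiation factors, Eif2ak2 and Eif3j2, against 0.888% of all genes. Eif2ak2, the kinase that senses double-stranded RNA, had 9.08 to 9.57 CPM in FMR1 KO and 7.15 to 8.85 in WT in the standard preparation, and 6.73 to 11.4 and 11.5 to 11.9 in the low nuclease one. This difference was not tested either, and neither mRNA passed in a comparison of the genotypes in which it was tested. Eif3j2, with 6 to 11 counts, was not tested between the genotypes in standard fraction 5/6.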

How the results depend on the processing

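Counts below are of initiation factors past the threshold. In occupancy, the low nuclease count fell from 30 to 0 in WT and from 17 to 0 in FMR1 KO with library size alone, and in FMR1 KO it was 31 with all groups in one fit, 40 with the RNA-seq libraries of the other preparation and 26 without the libraries dominated by 10 genes (chosen after seeing the data). The standard FMR1 KO count of 44 was 29 with the other RNA-seq libraries. In enrichment, the standard FMR1 KO count of 4 was 15 with DESeq2, 1 with library size alone, 7 with Cdk8 kept and 10 with all groups in one fit. The low nuclease counts of 15 in WT and 11 in FMR1 KO were both 3 with all groups in one fit, and FMR1 KO had 30 with library size alone. Between preparations, the WT count of 16 was 8 with all groups in one fit, and the FMR1 KO count of 8 was 15 with DESeq2. With 0 nt allowed between peaks, 1 and 2 mRNAs rather than 12 and 13 shared a pellet peak in WT and FMR1 KO. The cause of these shifts was not tested.

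With libraries left out, counts ranged from 34 to 41 and 34 to 45 for standard occupancy in WT and FMR1 KO, 17 to 33 and 0 to 29 for low nuclease occupancy, 0 to 7 in each standard enrichment comparison, 0 to 13 and 0 to 8 in the low nuclease ones, and 2 to 14 and 0 to 15 between preparations. They stayed at 0 for each comparison and interaction of the genotypes. The mRNAs with a shared pellet peak, 12 in WT and 13 in FMR1 KO, rose to 18 to 20 and 18 to 24. Fewer libraries then had to agree, which is a looser rule. Among the named values followed here, those that changed sign and passed the threshold under either setting were, in standard occupancy with the other RNA-seq libraries, Eif2ak3 (-2.11), Eif2s2 (0.24), Eif3f (1.02), Eif3h (1.42), Eif4a1 (0.55) and Eif4g1 (-0.076) in WT and Eif5b (-0.18) in FMR1 KO, and with library size alone Eif2ak1 (-0.63), Eif2ak2 (-0.14), Eif2ak3 (-1.13), Eif2b2 (-0.031), Eif2b5 (-0.45), Eif2s1 (-0.59) and Eif4a2 (-0.10) in WT and Eif2ak1 (-0.63) in FMR1 KO. In low nuclease occupancy Eif3a turned to 1.95 in WT and 1.76 in FMR1 KO with the other RNA-seq libraries, to 0.94 and 1.42 without the libraries dominated by 10 genes, and ran from -0.56 to 0.94 in WT with libraries left out, being 0.94 without RNA-seq replicate 2 and 0.93 without replicate 2 of both groups. Over all 52, 19 changed sign with library size alone in standard occupancy of each genotype. Of 1836 alternative values of 110 named results, 1540 kept their side of the threshold with no called value changing sign, 252 lost their call and 23 gained one.

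With the replicate number as a block, the low nuclease WT enrichment count rose from 15 to 20, with all 15 kept. Elsewhere not every same-numbered pair reached the correlation taken to show pairing, and the sources used here do not say which pellet and fraction 5/6 libraries share a gradient. There the block gave 16 rather than 11 calls in low nuclease FMR1 KO enrichment (10 shared), 3 rather than 4 in standard FMR1 KO enrichment (3 shared), 0 in standard WT enrichment, 2 rather than 8 and 11 rather than 16 between the FMR1 KO and the WT preparations, and 41, 41, 30 and 12 in occupancy. Depth was lowest in the standard RPF libraries, where 49 to 51 of the 52 could be tested in each comparison of 2 such groups.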
